A study of Schizosaccharomyces pombe with 5 samples.

Results

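The region described is the downstream end of the RNA polymerase II (Pol II) metagene of *S. pombe*: the last 50 of 100 gene-body bins, covering 50 to 100% of gene length, and every base from the transcript end site (TES) to 1000 bp beyond it. It was chosen by position alone and makes up 50% of the positions of the averaged profile. Pol II was followed through a Flag tag on Rpb3, by ChIP-seq of 2 *upf1Δ* and 2 wild-type libraries. The *upf1Δ* strain carried *upf1::hphMX6*, a replacement of *upf1* with a hygromycin resistance cassette, and both strains were *h-* and carried *flag-rpb3* together with *ade6-M216*, *ura4-D18* and *leu1*. The cells were untreated and grown in 400 ml of YES at 30 °C to an OD600 of 0.8. Each library has 1 profile, already averaged over all protein coding genes by the authors, so the values below belong to the average gene and not to any named gene. The sample titles carry 2 codes, each shared by 1 library of each strain. Replicate 1 of a strain is its library under the earlier code, and replicate 2 its library under the later one.

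Rpb3 is a core subunit of Pol II, present whatever the phosphorylation state of the polymerase. At the end of a gene the nascent transcript is cut and polyadenylated at the poly(A) site, while Pol II goes on transcribing beyond it. The RNA still attached to the polymerase is then degraded from its free 5′ end by a nuclear exonuclease (Dhp1 in *S. pombe*, Rat1 in budding yeast, Xrn2 in humans), and Pol II leaves the DNA further downstream. A metagene of total Pol II averages, after the TES, polymerases that have not yet left the DNA with those of any neighbouring gene. Upf1 is an ATP-dependent RNA helicase best known for its role in nonsense-mediated mRNA decay.

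In all 4 libraries the signal climbed towards the end of the gene, was highest just downstream of the TES, and then fell. The far-flank level is the mean of the same profile over a window that ends at 1000 bp. A return to this level before 1000 bp is thus fixed by construction, and only its position can differ between libraries. The start of the rise, the peak and its half-height width did not separate the strains, since the *upf1Δ* and wild-type libraries overlapped in each. For the start of the rise this depended on the threshold. It overlapped at 10% of the way to the peak but not at 5%. The foot of the decay separated the strains in some measures only. As a share of the peak height, the signal at 400 and at 450 bp overlapped between them. Both *upf1Δ* libraries fell to 10% of their peak height farther from the TES than both wild-type libraries, by 19.3 bp on average. The difference was 9.19 bp without wild-type replicate 2, 29.3 bp without wild-type replicate 1, and 7.37 bp at 5% of the peak height. Of the 11 shape measures at their main settings, only this decay and the return to the far flank had no overlap. The mean signal from 750 to 1000 bp, which is not among the 11, was lower in both *upf1Δ* libraries than in both wild-type libraries. That difference was -0.531% of the wild-type mean. With 2 libraries against 2, a two-sided exact permutation test gives no p below 0.333, so none of these differences could pass a threshold of 0.05. A lack of overlap has this p of 0.333, so it is not rare when the libraries are split at random. The signal was divided by the aligned reads before deposit, the depth behind a value is unknown, and no counting error can be given.

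**Figure D1:**
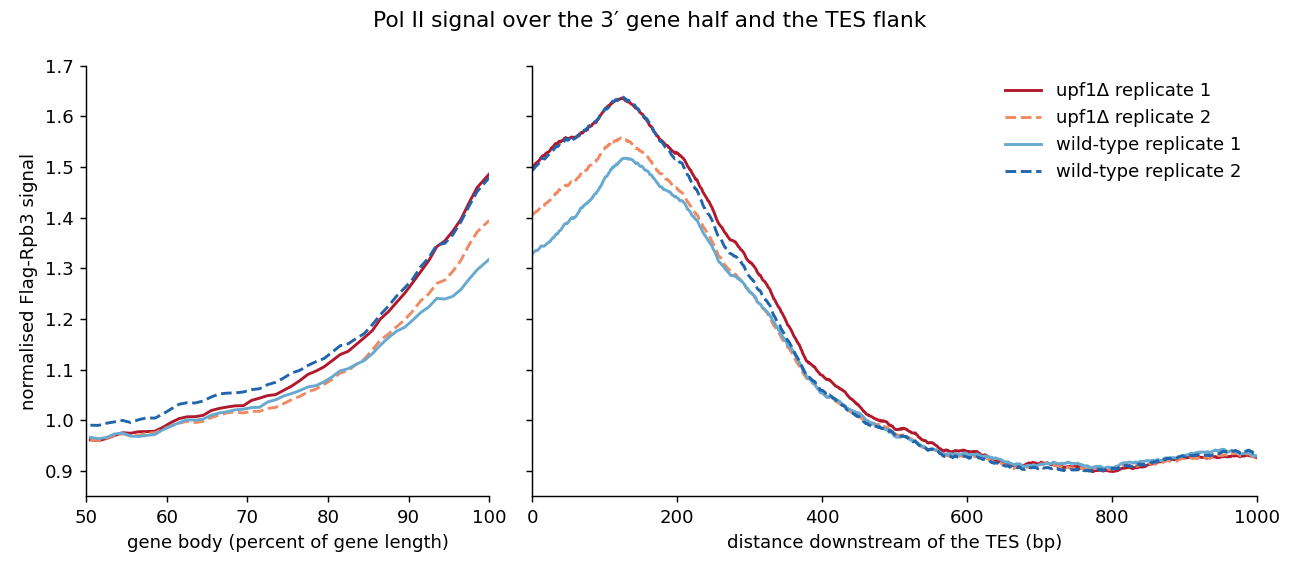
Normalised Flag-Rpb3 signal (no unit) of each library over 50 to 100% of gene length (left) and from the TES to 1000 bp downstream (right, in bp), with the vertical axis starting at 0.85. The line of *upf1Δ* replicate 1 runs beside that of wild-type replicate 2 at the peak, both near 1.64, and above *upf1Δ* replicate 2 at 1.56 and wild-type replicate 1 at 1.52.

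The flank is shared with other genes. In the ASM294v3 annotation, which is another build than the EF2 build of the alignments and served only to describe the genes, 36.48% of 5113 protein coding genes had a further protein coding gene lying over their end. At 0.125 kb downstream, close to the peak of the profile, this share was 49.8%, with 41.3% of the genes facing one on the opposite strand and 9.02% one on the same strand. At 0.5 kb the share was 78.497%, and at 1 kb it was 83.1%. The first gene met within 1000 bp was on the opposite strand for 52.9% of the genes and on the same strand for 38.7%, while 8.35% met none. Same-strand neighbours became more frequent with distance, covering 19.9% of the genes at 0.25 kb, 33.2% at 0.5 kb and 40.8% at 1 kb, whereas opposite-strand neighbours were highest at 0.625 kb with 48.3%. The processing described by the authors does not separate strands, so Pol II of a gene and of its neighbour cannot be told apart in the flank.

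AATAAA, the canonical poly(A) signal, was searched on the strand of the transcript in windows of 50 bp over 5110 genes with complete flanks. It was present in the last 50 bp before the gene end of 16.4% of the genes and in the first 50 bp after it of 8.90%. In the window at 950 to 1000 bp downstream the share was 4.70%, and in a window at the middle of the gene 2.58%. The motif can arise by chance in AT-rich sequence, and AT content was likewise highest in the last 50 bp of the gene, at 72.2%. It was 71.1% in the first 50 bp after the gene end, 67.9% at 100 to 150 bp downstream and 62.9% at 950 to 1000 bp. In the window at the middle of the gene it was 60.8%. The highest Pol II signal lay more than 100 bp downstream of the TES used by the authors. The motif windows are placed from gene ends of another build, so the distance between the peak and the motif was not measured.

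**Figure D2:**
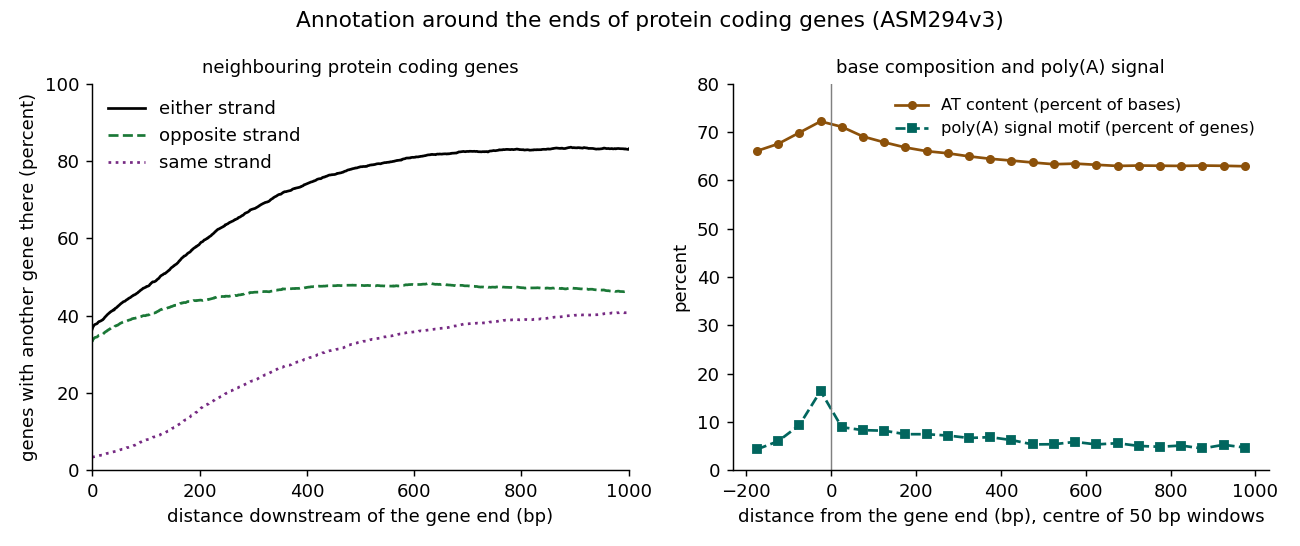
Left, percent of protein coding genes of ASM294v3 with a further protein coding gene at each distance (bp) from their end, on either, the opposite or the same strand. Right, AT content (percent of bases) and the poly(A) signal motif (percent of genes) in windows of 50 bp around the gene end; both are highest in the window just before it, at 72.2% and 16.4%.

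At the middle of the gene the signal was close to 1, with 0.961 and 0.962 in *upf1Δ* replicates 1 and 2, against 0.966 and 0.990 in wild-type. Between the middle and the end of the gene, both *upf1Δ* libraries lay below both wild-type libraries in 4 of the 50 bins, which is 8%, and in 0 bins above both. Over all positions of the table, 8.37% lay below and 32.8% above in this sense. Averaged over 50 to 100% of the gene the signal was 1.12 and 1.09 in *upf1Δ*, against 1.08 and 1.14 in wild-type. The strain means were 1.105 ± 0.0225 in *upf1Δ* and 1.11 ± 0.0397 in wild-type (SD, n = 2 each), and the difference of -0.00500 was smaller than either SD (two-sided exact permutation test, p = 1).

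The climb towards the TES was gradual at first and then steep. Between 50 and 60% of the gene the signal gained 0.00269 and 0.00207 per 1% of gene length in *upf1Δ*, against 0.00115 and 0.00219 in wild-type. Between 90 and 100% it gained 0.0227 and 0.0189 per 1% in *upf1Δ*, against 0.0119 and 0.0207 in wild-type. The slope between 90 and 100% was 8.45 and 9.14 times that between 50 and 60% in *upf1Δ*, and 10.3 and 9.46 times in wild-type, so the strains did not overlap in this ratio (p = 0.333, exact permutation test). The slopes themselves did overlap, with wild-type replicate 1 the shallowest library at both ends. The profiles were close to monotonic: of 49 steps from one bin to the next, 2 and 5 went down in *upf1Δ*, against 5 and 4 in wild-type.

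The threshold for the rise was the level at 50 to 60% of the gene plus 10% of the way to the peak. The start of the rise was placed where the signal crossed this threshold and then stayed above it to the gene end. It lay at 70.47 and 73.96% of gene length in *upf1Δ*, against 70.61 and 71.57% in wild-type. The wild-type libraries lay within the range of the *upf1Δ* libraries. The means were 72.21 ± 2.47% in *upf1Δ* and 71.09 ± 0.676% in wild-type (SD, n = 2 each; difference 1.12, exact permutation p = 1). For a gene of the median length of 1.77 kb, 1% of the gene is 17.7 bp, which places the start 0.524 and 0.462 kb before the TES in *upf1Δ* and 0.521 and 0.504 kb before it in wild-type. The position depends on how the start is defined. With 5% of the way to the peak it lay at 62.16 and 64.74% in *upf1Δ*, against 61.96 and 61.43% in wild-type, where the strains did not overlap (p = 0.333, exact permutation test), and with 25% it lay at 82.67 and 84.14% in *upf1Δ*, against 83.11 and 83.24% in wild-type, where they did. Measured from the far-flank level instead, it lay at 60.63 and 60.02% in *upf1Δ*, against 60.17 and 52.51% in wild-type.

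At the TES the signal was 1.4997 and 1.4059 in *upf1Δ*, against 1.3283 and 1.4927 in wild-type. The level at the TES was already 80.8 and 76.2% of the peak height in *upf1Δ*, against 67.97 and 79.6% in wild-type, counted from the mean of the far flank at 500 to 1000 bp. Wild-type replicate 1 stood apart from the other 3 libraries in this, with the largest climb from the TES to the peak. That climb was 0.137 and 0.151 in *upf1Δ*, against 0.189 and 0.146 in wild-type. The strains overlapped in each of these values.

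The peak lay 0.124 and 0.122 kb downstream of the TES in *upf1Δ*, against 0.127 and 0.124 kb in wild-type. The range over the 4 libraries was 5 bp, with 1 library of each strain at the same base, and the difference of -2.5 bp between the strains had an exact permutation p of 0.667. The signal at the peak was 1.64 and 1.56 in *upf1Δ*, against 1.52 and 1.64 in wild-type. Over the far flank the height was 0.711 and 0.635 in *upf1Δ*, against 0.590 and 0.716 in wild-type. The highest and the lowest peak were thus both wild-type. The mean height was 0.673 ± 0.0540 in *upf1Δ* and 0.653 ± 0.0889 in wild-type (SD, n = 2 each), a difference of 0.0198 that was smaller than either SD (exact permutation test, p = 1). Relative to 50 to 60% of the gene, the peak was 1.68 and 1.61 times as high in *upf1Δ*, against 1.56 and 1.64 times in wild-type.

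The direction of the height difference turned with the replicate number. Under the earlier code the peak height of *upf1Δ* minus that of wild-type was 0.121, and under the later code it was -0.0812. Over 50 to 100% of the gene, *upf1Δ* replicate 1 minus wild-type replicate 1 averaged 0.0390. The same difference between the libraries of replicate 2 averaged -0.0490. Across the codes the libraries were closer. From the TES to 250 bp, *upf1Δ* replicate 1 differed from wild-type replicate 2 by a mean of 0.00540, and *upf1Δ* replicate 2 from wild-type replicate 1 by 0.0450, compared with 0.123 and -0.0730 within the earlier and the later code. Of the 11 shape measures, 7 had opposite directions under the codes.

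**Figure D3:**
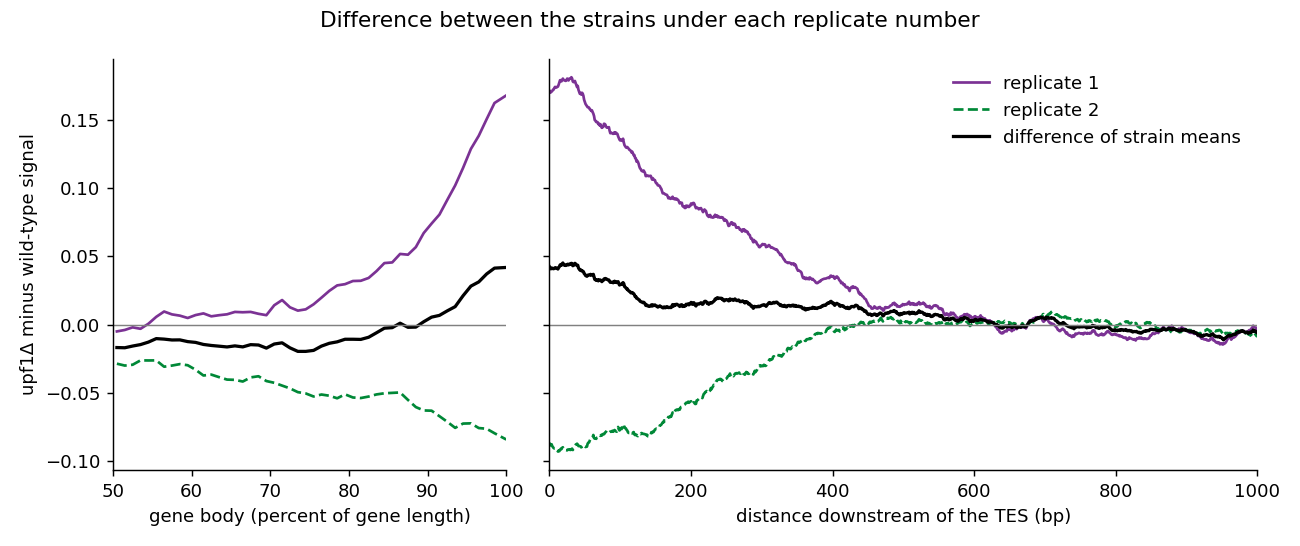
Difference in normalised Flag-Rpb3 signal, *upf1Δ* minus wild-type, for replicate 1, replicate 2 and the strain means, over 50 to 100% of gene length (left) and over the flank in bp (right). The lines lie on opposite sides of 0 from 60% of the gene to past the peak, with means of 0.123 and -0.0730 from the TES to 250 bp, and come together near 0 beyond 500 bp.

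The half-height width joins a part in percent of the gene with a part in bp. On the upstream side, the signal crossed 50% of the peak height over the far flank at 90.93 and 91.79% of gene length in *upf1Δ*, against 92.38 and 90.58% in wild-type. On the downstream side it crossed at 0.316 and 0.308 kb in *upf1Δ*, against 0.318 and 0.301 kb in wild-type. On both sides the *upf1Δ* libraries lay between the wild-type libraries. The downstream means were 0.312 ± 0.00577 kb in *upf1Δ* and 0.309 ± 0.0115 kb in wild-type (SD, n = 2 each; exact permutation test, p = 1). For a gene of median length the whole width was 0.477 and 0.454 kb in *upf1Δ*, against 0.453 and 0.468 kb in wild-type, with means of 0.466 ± 0.0166 kb in *upf1Δ* and 0.460 ± 0.0110 kb in wild-type (SD, n = 2 each; exact permutation test, p = 0.667). Of that width, 0.161 and 0.146 kb lay within the gene in *upf1Δ*, against 0.135 and 0.167 kb in wild-type, so most of it was downstream of the TES in every library. Fragments in the paper's ChIP protocol averaged about the size of this width, and its ChIP-seq protocol gives no fragment length. The effect of fragment length on the width and on the positions given in bp was not tested.

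**Figure D4:**
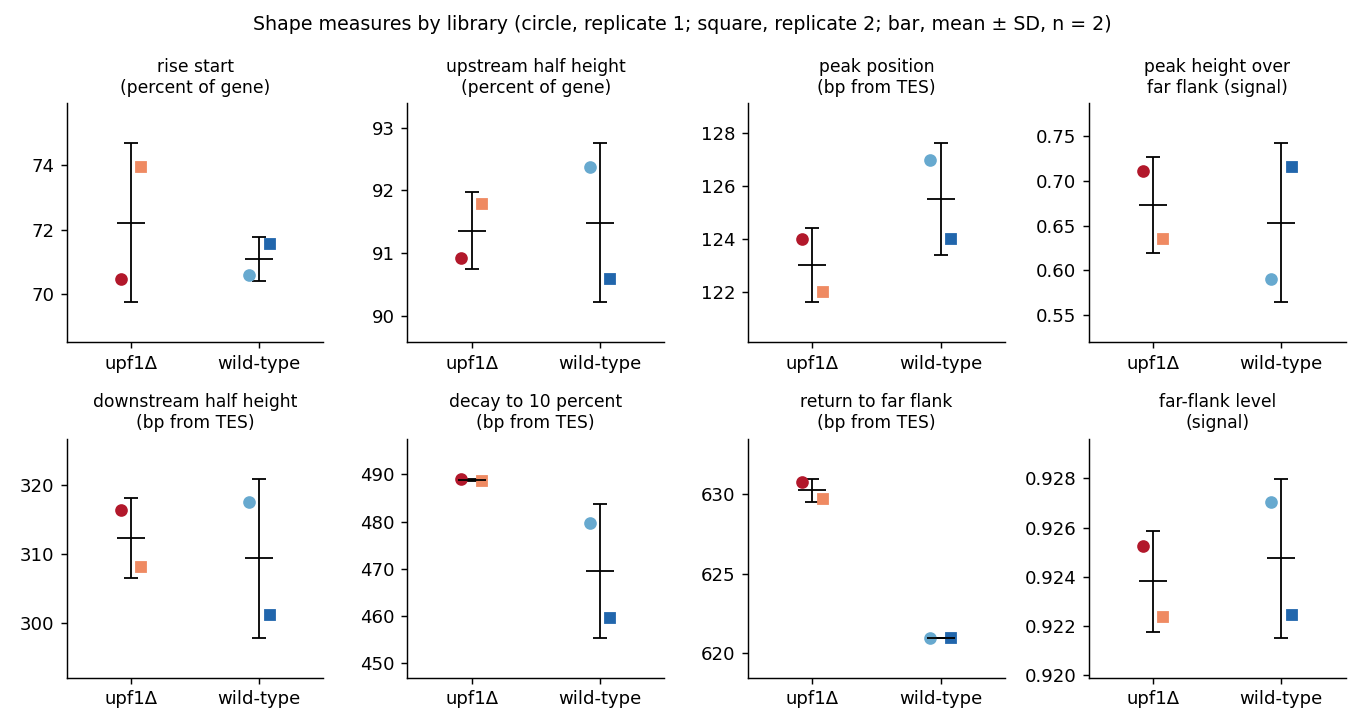
A panel for each of 8 shape measures, with its unit above the panel, *upf1Δ* left and wild-type right; circles are replicate 1, squares replicate 2, and bars the mean ± SD (n = 2), and the axes do not start at 0. The strains do not overlap in the decay to 10% and the return to the far flank, and overlap in the other 6 panels.

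The steepest 25 bp of the decay started 0.327 and 0.232 kb downstream of the TES in *upf1Δ*, against 0.232 and 0.228 kb in wild-type, so *upf1Δ* replicate 1 was steepest later than the other 3 libraries, beyond its half-height point. From the peak to the half-height point the slopes were -0.185 and -0.170 per 100 bp in *upf1Δ*, against -0.155 and -0.202 in wild-type. From there to 10% of the height the slopes were -0.165 and -0.141 per 100 bp in *upf1Δ*, against -0.146 and -0.181 in wild-type. The strains overlapped in both slopes, and wild-type replicate 2 fell most steeply in both parts.

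The signal reached 10% of the peak height over the far flank at 0.489 and 0.489 kb in *upf1Δ*, against 0.480 and 0.460 kb in wild-type. Both *upf1Δ* libraries lay beyond both wild-type libraries, and they differed from each other by less than the wild-type libraries did. The means were 0.489 ± 0.000262 kb in *upf1Δ* and 0.470 ± 0.0142 kb in wild-type (SD, n = 2 each), a difference of 19.3 bp or 4.10% (exact permutation test, p = 0.333, the smallest this design allows). The difference was 9.38 bp under the earlier and 29.1 bp under the later code, and it was 9.19 bp without wild-type replicate 2 and 29.3 bp without wild-type replicate 1. At 5% of the peak height it was 7.37 bp and at 10% of a profile smoothed over 25 positions 14.2 bp, with no overlap between the strains at either.

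The distance between the half-height point and 10% did not overlap either, at 0.173 and 0.180 kb in *upf1Δ* against 0.162 and 0.158 kb in wild-type, a difference of 10.2% (exact permutation test, p = 0.333). At 500 bp the signal still held 8.11 and 8.11% of the peak height in *upf1Δ*, against 6.99 and 6.91% in wild-type (p = 0.333, exact permutation test). At 100 bp, before the peak, the strains did not overlap, with 96.8 and 96.9% in *upf1Δ*, against 93.4 and 96.6% in wild-type (p = 0.333, exact permutation test). They overlapped at 250 and 400 bp, with 68.55 and 66.9% of the peak height at 250 bp in *upf1Δ*, against 69.3 and 64.9% in wild-type, and 22.96 and 20.9% at 400 bp in *upf1Δ*, against 21.4 and 19.1% in wild-type. They also overlapped at 450 bp, with 14.7 and 13.45% in *upf1Δ*, against 14.8 and 11.9% in wild-type.

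**Figure D5:**
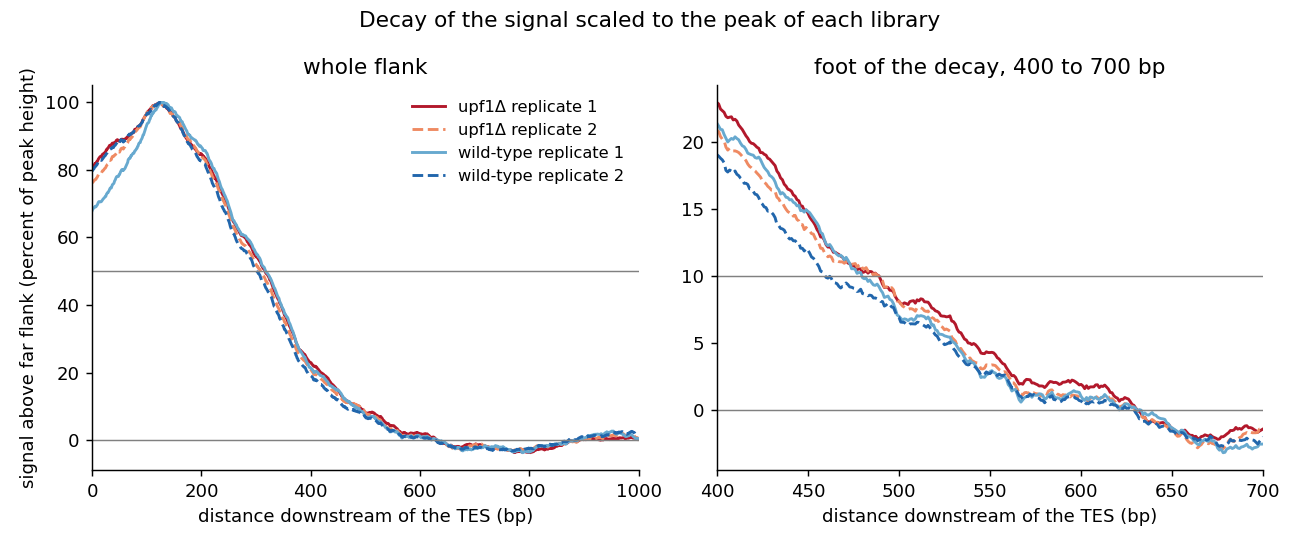
Signal above the far-flank mean as percent of each library's peak height against distance from the TES (bp), for the whole flank (left) and for 400 to 700 bp (right); grey lines mark 50% and 0 at left and 10% and 0 at right. At 500 bp the *upf1Δ* lines are at 8.11 and 8.11%, against 6.99 and 6.91% for the wild-type lines.

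The signal came back to the far-flank mean at 0.631 and 0.630 kb in *upf1Δ*, against 0.621 and 0.621 kb in wild-type. The difference was 9.29 bp (exact permutation test, p = 0.333), and it was 9.81 and 8.76 bp under the earlier and the later code. The profiles are nearly flat where they cross this level, and the result rested on its definition. It was 2.003 bp after smoothing over 25 positions and 6.10 bp with the far flank taken from 750 to 1000 bp, and with that far flank the strains overlapped, at 0.649 and 0.635 kb in *upf1Δ* against 0.641 and 0.630 kb in wild-type (exact permutation test, p = 0.667 for each).

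The total signal above the far flank between the TES and 500 bp averaged 0.433 and 0.377 per base in *upf1Δ*, against 0.350 and 0.420 in wild-type. The strains overlapped, and the difference of 0.0200 per base was smaller than the SD of 0.0396 in *upf1Δ* and 0.0492 in wild-type (exact permutation test, p = 0.667). Of this signal, 37.4 and 37.4% lay within 0.125 kb of the TES in *upf1Δ*, against 35.01 and 38.6% in wild-type. Divided by the peak height this total gives a mean width of 0.305 and 0.298 kb in *upf1Δ*, against 0.297 and 0.294 kb in wild-type, which did not overlap (exact permutation test, p = 0.333). The gap between *upf1Δ* replicate 2 and wild-type replicate 1 was small, at 0.297657 against 0.297321 kb. From 250 to 500 bp the mean signal was 1.16 and 1.12 in *upf1Δ*, against 1.12 and 1.14 in wild-type (exact permutation test, p = 1).

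In the far flank, from 500 to 1000 bp, the signal was 0.925 and 0.922 in *upf1Δ*, against 0.927 and 0.922 in wild-type (exact permutation test, p = 0.667). The libraries lay closer together here than at the peak, with a range of 0.00468 against one of 0.126 in peak height. The signal was not level within this flank. It was lowest at 0.802 and 0.769 kb in *upf1Δ*, against 0.788 and 0.771 kb in wild-type, and then regained 0.0328 and 0.0331 in *upf1Δ*, against 0.0378 and 0.0416 in wild-type. The regain did not overlap between the strains (exact permutation test, p = 0.333). From 750 to 1000 bp the mean was 0.917 and 0.918 in *upf1Δ*, against 0.924 and 0.921 in wild-type (p = 0.333, exact permutation test), and in the last 100 bp it was 0.928 and 0.929 in *upf1Δ*, against 0.936 and 0.934 in wild-type, a difference of -0.741% of the wild-type mean. The far-flank mean enters the peak height and the thresholds of the decay, and with the far flank from 750 to 1000 bp the decay to 10% differed by 19.4 bp, without overlap.

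Base by base, 7.80% of the positions of the region had both *upf1Δ* libraries over both wild-type libraries, and 16.4% had both under, beside 32.8% and 8.37% over the whole table. The share above was thus smaller than over the whole table and the share below larger. From the TES to 250 bp no position separated the strains in either direction. Beyond 250 bp and up to 500 bp 11.2% were above, and beyond 500 bp and up to 750 bp 21.6% were, and none below, both shares smaller than the 32.8% of the whole table. Beyond 750 bp 67.2% were below and none above. The longest unbroken stretch above ran from 0.473 to 0.528 kb, where the mean signal was 0.988 and 0.976 in *upf1Δ*, against 0.973 and 0.973 in wild-type, and the longest below ran from 0.883 to 1 kb, with 0.928 and 0.928 in *upf1Δ*, against 0.935 and 0.933 in wild-type. Neighbouring bases share reads, so these counts carry no test. Adjusted over the 11 shape measures by the Benjamini-Hochberg method, every exact permutation p was 1.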

How the data were processed

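The authors trimmed single-end reads with Trimmomatic (window of 4 bases at quality 22, minimum length 32), aligned them to EF2 with Bowtie2, scaled base coverage by the number of aligned reads and by an input library, and averaged it over protein coding genes. Versions are not given in the sources used here. The deposited signal has 1 profile per library and names no unit. The single input library, from wild-type cells, has no profile of its own and was not used on its own, so any feature of it would enter all 4 profiles. Nothing beyond the titles says that the libraries are separate cultures, so the spread between libraries of a strain may be technical. An exact permutation p gives only how the observed split of the 4 libraries ranks among all their splits.

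Shape measures were read from each profile with linear interpolation between positions, and the strains were compared by two-sided exact permutation tests over the 4 libraries. The far flank was 500 to 1000 bp, the base level 50 to 60% of the gene. Alternatives were other thresholds and flanks, a running mean over 25 positions, medians, division by the gene-body mean, leaving out each library in turn, and a replicate block. The measures were chosen with earlier results of these data known, and the 100 bp windows, slopes, widths and unbroken stretches were added after the profiles were seen. Some measures were also read from 200 simulated profiles. No result of that check is given here, so it does not show how well any measure performs on the real profiles. No gene could be named by a value, since the profile is an average over genes. The code in the titles is not stated to mark a batch or day. The software was matplotlib 3.10.9, pandas 2.3.3, SciPy 1.17.1, NumPy 2.4.6 and Python 3.11.15.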

Additional observations from a re-analysis of the deposited data

Results flagged for a closer look

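For 7 measures the difference between *upf1Δ* and wild-type had opposite directions under the 2 codes of the titles. With 1 library of each strain under a code, this contrast was not tested. *upf1Δ* minus wild-type, under the earlier and then the later code, was 0.0390 and -0.0490 in mean signal over 50 to 100% of the gene, 0.121 and -0.0812 in peak height over the far flank, and 0.0386 and -0.0128 in mean signal from 250 to 500 bp. The area over the far flank from the TES to 500 bp differed by 41.47 and -21.4 signal × bp. The start of the rise differed by -0.143 and 2.39 and the upstream half-height point by -1.45 and 1.20, both in percent of gene length, and the downstream half-height point by -1.17 and 6.93 bp.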

How the results depend on the processing

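Apart from leaving out a library, 53 values were computed under other settings, of which 28 equal the reported value by construction (replicate blocks, and rescaling of a position). The other 25 kept the direction of the strain difference, and none could pass 0.05 in this design. Leaving out each library in turn reversed the difference for 8 of the 11 measures. Lowest to highest, *upf1Δ* minus wild-type then ran between -0.0331 and 0.0231 for the mean signal over 50 to 100% of the gene, between -0.621 and 2.87% of gene length for the rise start, between -0.0431 and 0.0827 for the peak height, and between -1.02 and 0.775% for the upstream half-height point. It ran between -5.25 and 11.01 bp for the downstream half-height point, between -7.43 and 27.46 signal × bp for the area, between -0.00680 and 0.0326 for the signal from 250 to 500 bp, and between -0.00323 and 0.00134 for that from 500 to 1000 bp. It kept its sign for the peak position (-4 to -1 bp), the decay to 10% (9.19 to 29.3 bp) and the return to the far flank (8.76 to 9.82 bp). In these measures the sign could not turn. Both *upf1Δ* libraries lay beyond both wild-type libraries in the decay and the return, and no *upf1Δ* library peaked farther from the TES than a wild-type library. The kept sign therefore restates the order of the libraries and adds no support.

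Deviations from the strain mean correlated at -0.894 between libraries of the same code, over positions that share reads, and with 2 pairs this does not decide whether the code pairs the libraries. A replicate block by code leaves each difference as it is (19.3 bp for the decay to 10%), its smallest exact sign-flip p is 0.5, and it changed no call. The crossed pairing, added after the data were seen, gave p = 0.5 in exact sign-flip tests for the decay, the return and the area, and 1 for the other 8 measures. Depth per library is unknown, so precision rests on 2 libraries per strain.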
